A study of Homo sapiens with 6 samples.

Results

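The small RNA machinery comprised 10 genes whose products make or use short guide RNAs: the Argonaute genes AGO1, AGO2, AGO3 and AGO4, the nuclease genes DICER1 and DROSHA, their partners TARBP2 and DGCR8, the export receptor gene XPO5 and the silencing scaffold gene TNRC6A. They were picked by gene symbol from a table of 54261 genes, with earlier results of these data known. All 10 were found, and all 10 were among the 13896 genes that passed the filter on low counts. RNA sequencing was done on 6 libraries of T24, an established human bladder cancer cell line. In 3 control libraries the cells had been infected with a lentivirus whose construct name (HBLV-ZsGreen-PURO) lists a fluorescent protein and puromycin resistance and no hairpin. In 3 knockdown libraries the lentivirus carried the second of several short hairpin RNAs against MTHFD2, a mitochondrial folate enzyme, with the same markers, and infected cells were selected with puromycin. Whether the control virus expressed any hairpin is not given in the sources used here, so the presence of a hairpin and the loss of MTHFD2 cannot be told apart in what follows. Nor is it given whether the infected cells were pools or single clones.

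A microRNA is made in steps. In the nucleus DROSHA and its RNA-binding partner DGCR8, together called the Microprocessor, cut a hairpin out of a longer transcript, and XPO5 carries it to the cytoplasm, where DICER1 with TARBP2 trims it to a short duplex. An Argonaute protein keeps one strand and, through TNRC6 proteins, brings deadenylases and decapping enzymes to matching messenger RNAs. A hairpin expressed from a simple lentiviral cassette is generally taken to skip the Microprocessor and to enter at export. AGO2 is the Argonaute known for cutting a fully matched target efficiently. All values here are levels of the messenger RNAs of these genes. Small RNAs and proteins were not measured.

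AGO2 was the single member that passed the test (edgeR adjusted p under 0.05). It was 1.60-fold higher after knockdown, a call lost without control replicate 1 or control replicate 3, while DROSHA, DGCR8, XPO5, DICER1, TARBP2, TNRC6A and the other 3 Argonaute genes did not pass the test. Within a library, each AGO3 count was matched by 4.34 ± 0.0559 AGO2 counts in the control libraries and by 8.01 ± 1.75 in the knockdown libraries (SD, n = 3 each), a pair chosen after the levels were seen whose difference had an exact permutation p of 0.1 (0.15 adjusted over 6 pairs) and did not pass. By edgeR's quasi-likelihood test with adjustment over all tested genes, 1 of 10 members passed, against 17.3% of all tested genes, 1 rose, against 9.71% of all, and none fell, against 7.58%. The median log2 fold change was 0.00 over the 10 members and 0.01 over all tested genes, with 5 members above 0. A share of 1 in 10 is not above the background. Over other ways of processing, 0 to 6 of the 10 members passed: 1 each with RLE scaling and with a filter at 1 CPM (17.4% and 18.5% of all genes), 2 by DESeq2 (18.7%), 3 without a filter on low counts (12%), 4 with the replicate number as a block (36.4%), 4 with trends on GC content and length removed (26.8%), 6 with both (43.1%) and none at an adjusted p under 0.01 (5.39%). Leaving out control replicates 1, 2 and 3 gave 0, 2 and 0 members (7.03%, 11.8% and 6.92% of all genes), and leaving out knockdown replicates 1, 2 and 3 gave 2, 1 and 3 (18.4%, 10.4% and 18.6%).

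Library totals ran from 17801990 to 19978392 counts, and each member held at least 273 counts in every library. A count of 0, which allows up to 3, would equal 0.149 to 0.171 CPM (counts per 1000000 counts of the library, scaled by TMM), below every member. The target fell in every knockdown library: MTHFD2 was at 185, 188 and 181 CPM in the control libraries and at 26.7, 33.6 and 36.7 CPM after knockdown, a log2 fold change of -2.51 ± 0.13 (SE; edgeR adjusted p = 1.8e-06). Nothing in the labels says that the numbered replicates were separate cultures. The p-values therefore rest on the spread among 3 samples a group, and that spread may be technical. The limit that a count of 0 allows covers counting error only. Of 14 epithelial and urothelial markers, KRT18 (1109 to 1348 CPM in the control libraries), KRT8 and KRT7 were high, PPARG was at 14.7 to 17.5 CPM and UPK1B at 2.83 to 5.25 CPM over all libraries. UPK1A was at 0.342 to 0.478 CPM in the control and 0.994 to 1.98 CPM in the knockdown libraries. UPK3A and KRT20 were at 0 in all libraries, and KRT5, KRT19, GATA3, UPK2, EPCAM and CDH1 held at most 11 counts in any. The 14 markers summed to 2110 to 2518 CPM in the control and 1004 to 1323 CPM in the knockdown libraries. KRT18 and KRT8 made up most of each sum. KRT18 was at 544 to 710 CPM in the knockdown libraries. KRT8 was at 785 to 904 CPM in the control and 304 to 402 CPM in the knockdown libraries. KRT7 overlapped, at 183 to 244 CPM in the control and 134 to 189 CPM in the knockdown libraries. The 10 fibroblast markers summed to 7.35 to 9.15 CPM in the control libraries and to 45.4, 12.1 and 39.4 CPM in knockdown replicates 1 to 3, with none at 0 in all libraries. Lists of 5 leukocyte, 5 endothelial and 4 hepatocyte markers each stayed at or below 3.02 CPM in every library, and the hepatocyte marker TTR was at 0 in all 6. The part of these markers in the results was not tested, and in bulk RNA fewer cells of a type and less RNA per cell cannot be told apart.

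**Figure D1:**
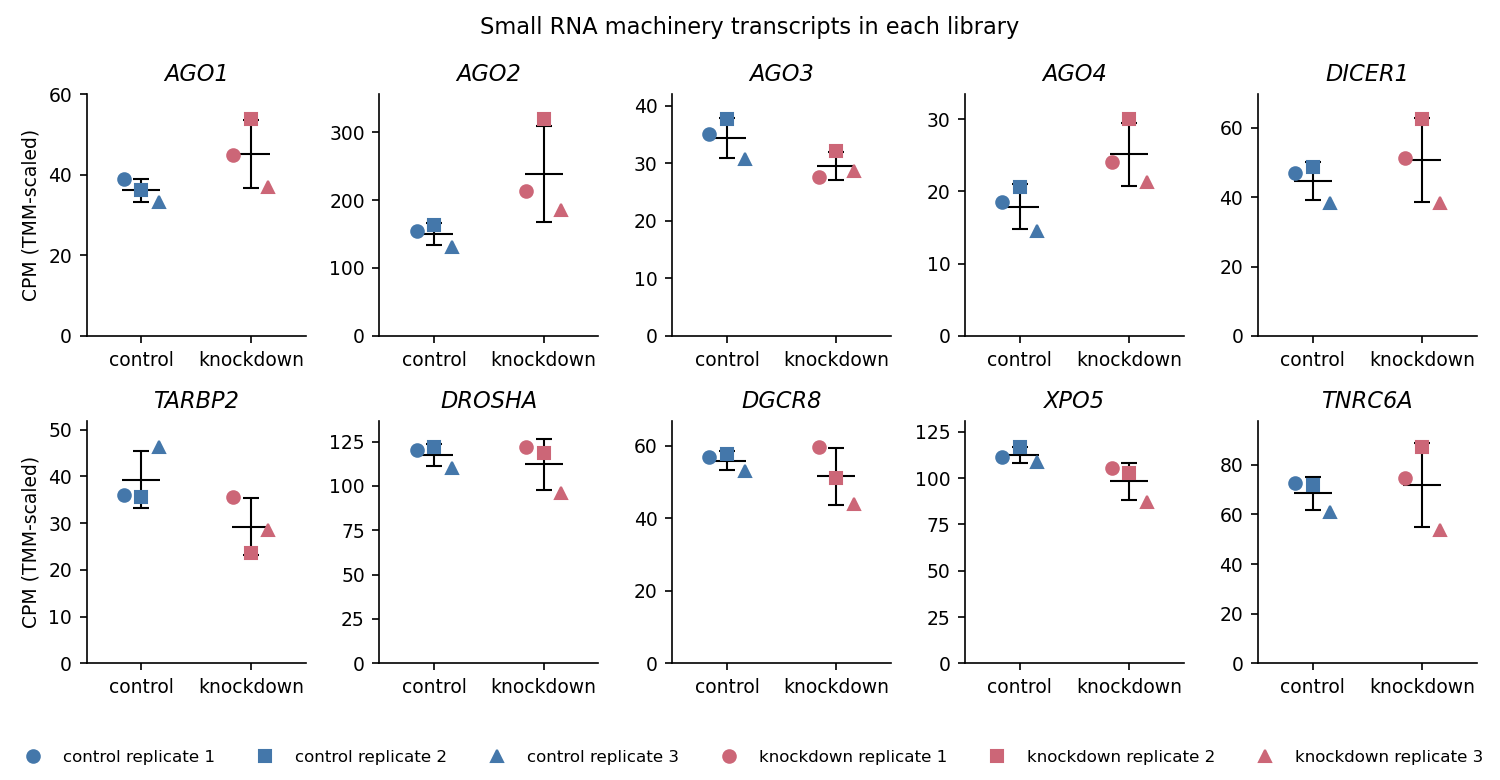
Level of each of the 10 messenger RNAs in each library, in TMM-scaled CPM; points are libraries, the horizontal bar is the group mean and whiskers are 1 SD (n = 3). AGO2 and AGO4 are higher in every knockdown library than in any control, XPO5 and TARBP2 are lower, and the other 6 overlap.

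The 4 Argonaute genes share a domain plan and bind largely the same small RNAs. AGO2 (chromosome 8, 140520156 to 140635619, minus strand) was at 154, 163 and 131 CPM in control replicates 1 to 3 and at 213, 318 and 185 CPM in knockdown replicates 1 to 3. The groups did not overlap, and knockdown replicate 2 stood above the other two knockdown libraries. Its log2 fold change of 0.67 ± 0.17 (SE) passed, with an edgeR adjusted p of 0.022, and the 95% interval of the fold was 1.23 to 2.07. The call was lost without control replicate 1 (log2 fold change 0.69, edgeR adjusted p = 0.0598) and without control replicate 3 (0.59, adjusted p = 0.0857). Without knockdown replicate 2 the log2 fold change was 0.41 and still passed (edgeR adjusted p = 0.0388). That library held the least fibroblast marker signal of the knockdown group (12.1 CPM) and also its lowest epithelial and urothelial marker sum (1004 CPM). A link of these markers to AGO2 was not tested. With knockdown replicate 2 alone against the controls the log2 fold change of AGO2 was 1.08. That comparison was added after seeing the data and takes the spread of the controls for a single library that was often the extreme one, so the 5 of 10 members past the threshold in it, against 30% of all genes, support nothing.

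AGO4, the least abundant Argonaute by counts, had the next largest difference. It was at 18.6, 20.6 and 14.5 CPM in the control libraries and at 24.1, 29.9 and 21.3 CPM after knockdown. All knockdown libraries lay above all controls, but the lowest of them was close to the highest control. The log2 fold change of 0.49 ± 0.16 (SE) missed the threshold in edgeR (adjusted p = 0.056) and passed in DESeq2 (adjusted p = 0.0388). AGO1 was at 39.0, 36.1 and 33.2 CPM in the control libraries and at 44.9, 53.7 and 37.0 CPM after knockdown. Knockdown replicate 3 lay within the control range, and the log2 fold change was 0.32 ± 0.14 (edgeR adjusted p = 0.127). With knockdown replicate 2 alone, the highest knockdown library for both, the log2 fold changes of AGO1 and AGO4 were 0.56 and 0.74. AGO3 leaned the other way, from 35.1, 37.6 and 30.7 CPM in the control libraries to 27.7, 32.2 and 28.7 CPM after knockdown. A single knockdown library, replicate 2, reached into the control range, and the log2 fold change was -0.22 ± 0.12 (edgeR adjusted p = 0.212).

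These sizes changed when trends of the counts on GC content and exonic length were removed from each library. AGO3 has the greatest exonic length of the 10 genes (21157 bases in GENCODE release 29). Its longest transcript has the lowest GC content of the 10 (38.9%). In that fit the log2 fold change of AGO3 was -0.48 ± 0.09 and passed (edgeR adjusted p = 0.00355). In the same fit AGO2 was higher by 0.51 ± 0.11 (edgeR adjusted p = 0.00741) and AGO4 by 0.37 ± 0.12 (edgeR adjusted p = 0.048), while AGO1 was at 0.17 and did not pass. The fit held 12553 genes.

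Counts of 2 genes within 1 library can be divided with no scaling between libraries. The ratio of AGO2 to AGO3 counts was 4.39, 4.34 and 4.28 in the controls and 7.69, 9.89 and 6.44 in the knockdown libraries. The controls sat within a narrow range and every knockdown library was above it. AGO3 held 578 to 724 counts in the control libraries. The counting error of the ratio was not estimated, so the narrow range is no measure of its precision. The mean difference was 0.86 on the log2 scale, with a p of 0.1 by an exact two-sided permutation test, the smallest that 3 against 3 libraries allow (0.15 adjusted over the 6 pairs of AGO genes). The ratio of AGO3 to AGO4 counts went the other way, from 1.89, 1.83 and 2.12 to 1.15, 1.08 and 1.35, again with no overlap (exact permutation p = 0.1, adjusted 0.15). The ratio of AGO1 to AGO2 counts (0.243 ± 0.0186 in the control and 0.193 ± 0.0219 in the knockdown libraries) did not overlap either. Nor did that of AGO1 to AGO3 counts (1.05 ± 0.0814 and 1.53 ± 0.207), with the same p for each. The ratio of AGO2 to AGO4 counts was 8.43 ± 0.575 in the control and 9.39 ± 1.09 in the knockdown libraries and the groups overlapped (exact permutation p = 0.3). So did the ratio of AGO1 to AGO4 counts (exact permutation p = 0.3). These ratios were computed after the levels had been seen. With the trends on GC content and length removed, the fitted difference between AGO2 and AGO3 was 0.99, and without knockdown replicate 2 the difference in ratio was 0.70.

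Per kilobase of exon, AGO2 supplied most Argonaute messenger RNA. Its share of the 4 genes was 58.1%, 58.9% and 58.7% in the controls and 63.1%, 67.9% and 62.7% in the knockdown libraries. The share of AGO3 was 9.89%, 10.1% and 10.3% in the controls and 6.14%, 5.14% and 7.28% in the knockdown libraries. Neither share overlapped between the groups (exact permutation p = 0.1 for each, adjusted over the 4 shares 0.2). AGO1 made up 16.2% ± 1.17 and 14.2% ± 1.07 (SD, n = 3; exact permutation p = 0.2), and AGO4 held 15.2% ± 1.02 and 15.1% ± 1.01 (exact permutation p = 0.9). The sum over the 4 genes was 16.1 ± 1.78 CPM per kilobase in the control and 23.2 ± 5.73 in the knockdown libraries, with no overlap (exact permutation p = 0.1). AGO2 made up most of this sum in every library, so it is not separate from the AGO2 difference.

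**Figure D2:**
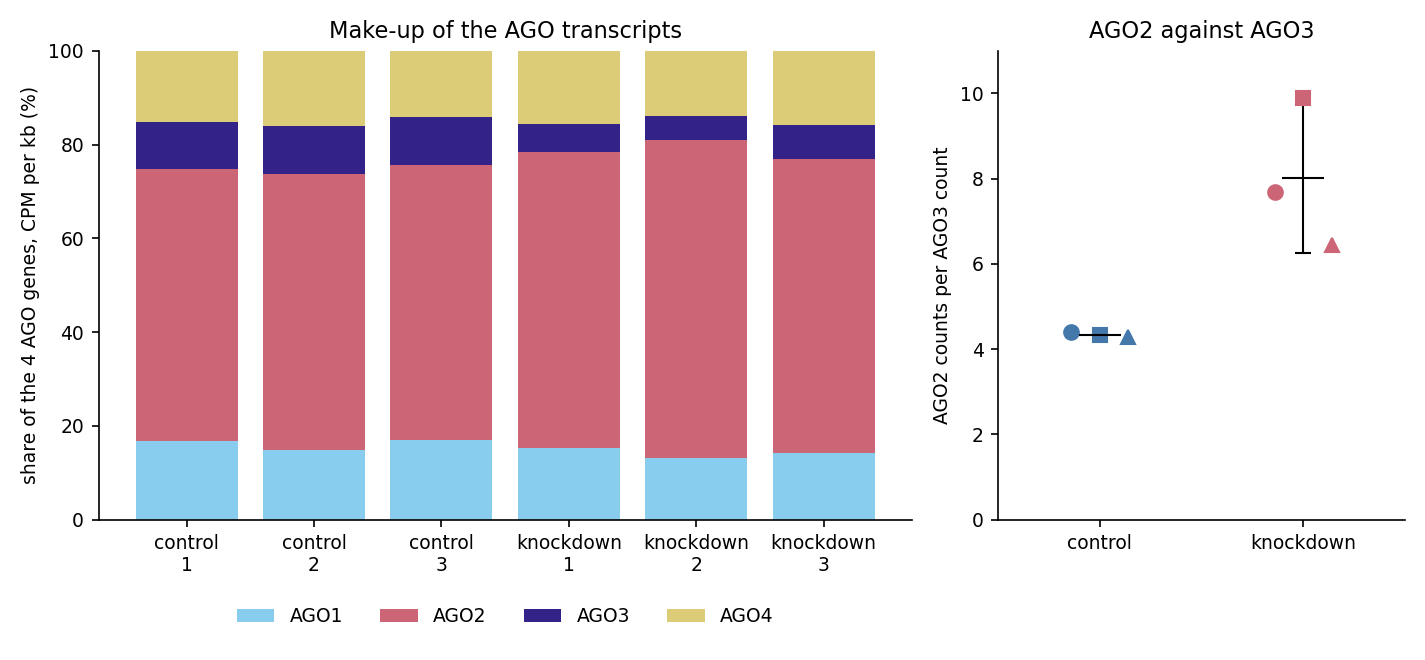
Left, share of each Argonaute gene in the length-scaled counts (CPM per kilobase of exon) of the 4 genes in each library, in percent; right, AGO2 counts divided by AGO3 counts, with points for libraries (replicate 1 circle, 2 square, 3 triangle), bar for the mean and whiskers for 1 SD (n = 3). AGO2 takes 58.1% to 58.9% in the controls and 62.7% to 67.9% after knockdown, and the ratio to AGO3 is 4.28 to 4.39 against 6.44 to 9.89.

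AGO4, AGO1 and AGO3 lie in this order on the plus strand of chromosome 1 (GRCh38), next to one another. In GENCODE release 29 AGO4 spans 35808172 to 35857890, AGO1 spans 35869808 to 35930528 and AGO3 spans 35930718 to 36072500. AGO1 ends 189 bases before AGO3 starts, and 11917 bases separate AGO4 from AGO1. The promoter windows of the 3 neighbours are shown because these genes share a locus and a strand while the log2 fold change of AGO3 had the opposite sign. Windows were matched by symbol for 9 of the 10 members, and 3 are shown. The sequences are from RefSeq (GRCh38.p14, plus strand, 250 bases before to 50 after a start site), and capitals mark each GC box, the letters GGGCGG or, on the other strand, CCGCCC.
AGO4 chr1:35807766-35808065: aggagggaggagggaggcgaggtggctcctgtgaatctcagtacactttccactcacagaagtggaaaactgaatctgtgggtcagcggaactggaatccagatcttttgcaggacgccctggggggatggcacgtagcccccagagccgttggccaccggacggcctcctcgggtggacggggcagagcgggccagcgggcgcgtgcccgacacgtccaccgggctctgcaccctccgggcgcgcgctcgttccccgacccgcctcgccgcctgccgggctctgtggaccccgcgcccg
AGO1 chr1:35882959-35883258: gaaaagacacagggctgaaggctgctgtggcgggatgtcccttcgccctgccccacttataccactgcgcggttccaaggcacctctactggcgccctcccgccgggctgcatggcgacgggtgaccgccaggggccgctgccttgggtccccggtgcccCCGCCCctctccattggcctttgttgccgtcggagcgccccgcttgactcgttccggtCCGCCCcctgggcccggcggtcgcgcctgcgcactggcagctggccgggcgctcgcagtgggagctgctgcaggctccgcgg
AGO3 chr1:35930855-35931154: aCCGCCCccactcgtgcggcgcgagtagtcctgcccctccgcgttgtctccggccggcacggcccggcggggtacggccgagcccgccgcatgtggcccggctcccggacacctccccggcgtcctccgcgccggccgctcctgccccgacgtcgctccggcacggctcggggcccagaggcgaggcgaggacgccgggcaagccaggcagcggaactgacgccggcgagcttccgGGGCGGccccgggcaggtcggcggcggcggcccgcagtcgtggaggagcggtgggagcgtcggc
The AGO1 and AGO3 windows lie inside the GENCODE spans of their genes, downstream of the annotated starts. A GC box occurred in 45.0% of 35116 such windows, at 2 positions in AGO1, 2 in AGO3 and none in AGO4. Of the 3, the AGO3 window was the richest in CpG, with 50 CpG dinucleotides against 30 in AGO1, 29 in AGO4 and a median of 14 over all windows. The E box CACGTG and the TATA box TATAAA, searched on both strands, occurred in none of the 3 windows (7.26% and 11.5% of all windows), and CCAAT occurred once, in AGO1 (34.6% of all). The motifs do not overlap in their letters. These matches are a description of the letters in the windows.

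DICER1 and TARBP2 encode the cytoplasmic nuclease and the double-stranded RNA-binding protein that seats its substrate. DICER1 (chromosome 14, 95086228 to 95158010, minus strand) was at 47.0, 48.7 and 38.3 CPM in the control libraries and at 51.3, 62.4 and 38.4 CPM after knockdown. The groups overlapped, with knockdown replicate 3 level with control replicate 3. The log2 fold change was 0.18 ± 0.16 (edgeR adjusted p = 0.452), and the 95% interval of the fold was 0.888 to 1.45. It turned to -0.045 with the trends on GC content and length removed, and was 0.48 with knockdown replicate 2 alone, the highest library. TARBP2 (chromosome 12, 53500921 to 53506431, plus strand) was at 35.9, 35.7 and 46.3 CPM in the control libraries and at 35.5, 23.6 and 28.6 CPM after knockdown. All 3 knockdown libraries lay below the controls, knockdown replicate 1 only just, and control replicate 3 stood above the other controls. The log2 fold change of -0.43 ± 0.16 did not pass (edgeR adjusted p = 0.0846; DESeq2 adjusted p = 0.0514). It was -0.74 with knockdown replicate 2 alone, the lowest library, and -0.29 without it. TARBP2 has the shortest transcript of the 10 (1867 bases) and the highest GC content (60.8%).

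DROSHA and DGCR8 act upstream of the point where a simple short hairpin enters, and neither passed. DROSHA (chromosome 5, 31400497 to 31532196, minus strand) was at 120, 122 and 110 CPM in the control libraries and at 122, 118 and 95.9 CPM after knockdown. Knockdown replicates 1 and 2 lay in the control range, and the fold was 0.954 with a 95% interval of 0.804 to 1.13 (edgeR adjusted p = 0.703). DGCR8 (chromosome 22, 20080232 to 20111877, plus strand) was at 57.0, 57.7 and 53.1 CPM in the control libraries and at 59.7, 51.0 and 43.8 CPM after knockdown. The knockdown libraries lay on both sides of the controls, and the fold was 0.921 with a 95% interval of 0.765 to 1.11 (edgeR adjusted p = 0.529). Both intervals leave room for a fall and for a small rise.

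The Microprocessor is known to cut the DGCR8 transcript itself at hairpins in its exons. The 2 microRNA genes that RefSeq (GRCh38.p14) places in DGCR8, MIR3618 and MIR1306, both lay within exons of its GENCODE models, on the same strand. Their mature products are shown for that reason, with the seed (bases 2 to 8) in capitals.
hsa-miR-3618 chr22:20085797-20085818: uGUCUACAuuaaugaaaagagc
hsa-miR-1306-5p chr22:20086072-20086093: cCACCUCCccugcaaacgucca
hsa-miR-1306-3p chr22:20086112-20086129: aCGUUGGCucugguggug
The 3 seeds differ from one another. The entries of both hairpins held 0 counts in all 6 libraries, so no level of these small RNAs can be read from the table. MIR3173, inside an intron of DICER1, held 1 count in a single library.

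XPO5, which carries hairpins out of the nucleus (chromosome 6, 43522330 to 43576075, minus strand), was at 112, 117 and 109 CPM in the control libraries and at 105, 103 and 86.9 CPM after knockdown. Each knockdown library was below each control, with replicate 3 the lowest. The log2 fold change of -0.19 ± 0.11 did not pass (edgeR adjusted p = 0.222). With trends on GC content and length removed it was -0.26 ± 0.07 and passed (edgeR adjusted p = 0.0224). XPO5 shares 348 exonic bases with POLR1C on the opposite strand, and since the strandedness of the counting is not given, reads there could belong to either gene. The counts of POLR1C were 752, 840 and 946 in the controls and 733, 583 and 658 in the knockdown group. The same holds on a smaller scale for 80 exonic bases of DICER1 (DICER1-AS1, at most 19 counts a library) and 12 of DGCR8 (TRMT2A).

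TNRC6A, which links Argonaute to the deadenylases (chromosome 16, 24610209 to 24827632, plus strand), was at 72.8, 72.0 and 60.9 CPM in the control libraries and at 74.8, 87.3 and 53.7 CPM after knockdown. The knockdown libraries lay on both sides of the controls. The log2 fold change was 0.07 ± 0.16 (edgeR adjusted p = 0.792), and it turned negative without knockdown replicate 2 (-0.095), without control replicate 3 (-0.013) and, at -0.091, with trends on GC content and length removed.

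**Figure D3:**
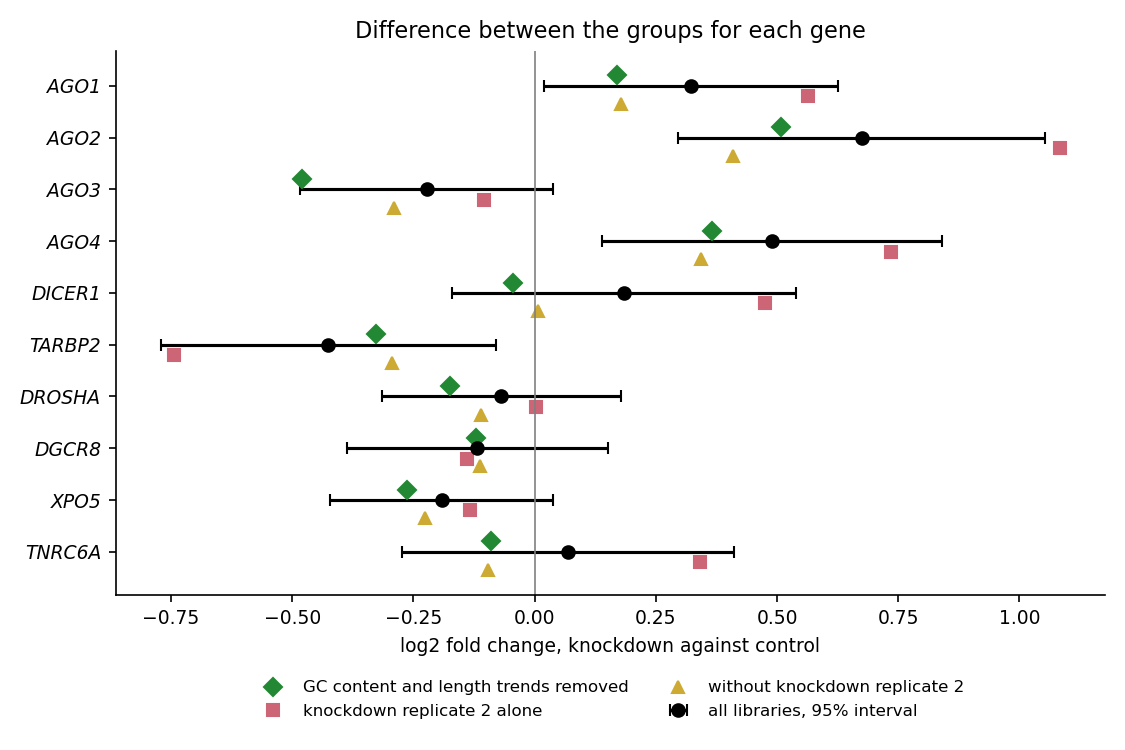
Log2 fold change, knockdown against control, of each member in the fit of all 6 libraries (black, with its 95% interval) and in 3 other fits: with GC content and length trends removed (diamonds), without knockdown replicate 2 (triangles) and with knockdown replicate 2 alone (squares). AGO1, AGO2 and AGO4 stay right of 0 in all 4 fits, and AGO3, TARBP2, DGCR8 and XPO5 stay left of 0. DICER1, TNRC6A and DROSHA (0.0028 with knockdown replicate 2 alone) fall on both sides.

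Counting groups that did not overlap gave 2 members higher (AGO2 and AGO4) and 2 lower (TARBP2 and XPO5), or 4 of 10, against 39.1% of all tested genes (20.1% higher and 19% lower). Within the groups, the members largely shared the order of the single libraries. Control replicate 3 was the lowest control for 9 of the 10 genes, all but TARBP2, for which it was the highest. Knockdown replicate 3 was the lowest knockdown library for 8, and knockdown replicate 2 the highest for 6: AGO1, AGO2, AGO3, AGO4, DICER1 and TNRC6A. These orders were not counted over all tested genes, so they cannot be called particular to the members.

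The tested genes whose log2 CPM was most like that of AGO2 over the 6 libraries, among those averaging 4 or more, were TTC21B, UBXN7 and DIP2B (Pearson r = 0.997, 0.997 and 0.996). The 3 most like DICER1 were NUP205, FAT1 and MACF1 (r = 0.998, 0.997 and 0.996). These correlations describe 6 libraries in 2 groups that share their scaling, and carry no test.

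Per kilobase of exon, the control libraries ranked DROSHA first (15.1 ± 0.816 CPM per kilobase, SD, n = 3) and XPO5 next (13.2 ± 0.487). TARBP2 (9.61 ± 1.49) and AGO2 (9.45 ± 1.04) followed and overlapped. Below them came DGCR8 (7.64 ± 0.343), TNRC6A (5.31 ± 0.515) and DICER1 (3.63 ± 0.452), each apart from the next. AGO1 (2.60 ± 0.209) and AGO4 (2.46 ± 0.427) overlapped, and AGO3 was last (1.63 ± 0.166). The median over 12553 tested genes with a length was 5.82, which put DROSHA above 74.0% of them and AGO3 above 25.1%. The order depends on the length used: by the longest transcript TARBP2 (21.0) stood beside XPO5 (21.0) and DROSHA (22.2), and DGCR8 (11.9) came before AGO2 (10.3).

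Other genes of the pathway were sorted into 8 lists with 86 genes. Of these, 78 were tested, 4 rose and 5 fell, or 11.5%, against 17.3% of all tested genes, and the median log2 fold change was 0.01 in both. All 4 genes of the PIWI clade, the germline relatives of the Argonautes, held at most 5 counts in any library and were not tested. DCP1B, LIN28A, LIN28B and TRIM71, which held at most 2, were not tested either.

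Of 14 nuclear partners of the Microprocessor, 1 fell: SAFB2, an RNA-binding scaffold protein, went from 81.3 ± 4.18 to 61.0 ± 9.26 CPM (log2 fold change -0.41 ± 0.12, edgeR adjusted p = 0.0356), a call held in 1 of 6 fits when single libraries were dropped. None of 4 transport genes passed. RAN, the small GTPase that XPO5 needs to bind its cargo, was at 1095 ± 88.3 and 904 ± 116 CPM (edgeR adjusted p = 0.136; 0.0396, a call, with trends on GC content and length removed), and XPO1 at 441 ± 43.1 and 509 ± 47.6 CPM (adjusted p = 0.222).

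Of 13 Dicer partners and loading factors 3 fell and none rose, with a list median of -0.09. These are 23.1% of the list, against 17.3% of all tested genes called and 7.58% called lower, a count too small to set the list apart. Among them were the LIM-domain proteins WTIP (-0.90 ± 0.19, edgeR adjusted p = 0.00847) and AJUBA (-0.60 ± 0.11, edgeR adjusted p = 0.00423), which belong to a family known to bridge Argonaute and cap-binding proteins and also to act at cell junctions. WTIP had 499, 484 and 683 counts among the controls and 362, 229 and 346 in the knockdown group, and both genes passed whichever library was dropped. The chaperone HSPA8, which helps load duplexes into Argonaute and serves many other clients, fell from 3806 ± 249 to 2801 ± 338 CPM (edgeR adjusted p = 0.0314), a call held in 2 of 6 such fits. LIMD1, listed with WTIP and AJUBA and of the same family, overlapped between the groups and did not pass (-0.09 ± 0.12, edgeR adjusted p = 0.646).

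None of 11 TNRC6 paralogs and Argonaute cofactors passed. The most abundant were FXR1 (243 ± 2.65 and 274 ± 9.97 CPM, edgeR adjusted p = 0.21) and SND1 (218 ± 3.48 and 206 ± 13.7 CPM, adjusted p = 0.594). Of 17 deadenylation genes 2 rose and 1 fell, or 17.6%, near the 17.3% of all tested genes. The deadenylase CNOT6L rose by 0.56 ± 0.14 on the log2 scale (edgeR adjusted p = 0.0197) and PAN3, the adaptor of the PAN2 deadenylase, by 0.40 ± 0.11 (edgeR adjusted p = 0.0278). When single libraries were dropped these calls held in 3 and 2 of 6 fits. The poly(A)-binding protein PABPC4 fell from 182 ± 2.69 to 128 ± 15.4 CPM (-0.51 ± 0.11, edgeR adjusted p = 0.00893), and in all 6 of those fits.

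Of 10 tested decapping and decay genes XRN1, the main cytoplasmic exonuclease acting from the 5′ end, rose from 23.0 ± 3.22 to 32.7 ± 6.71 CPM (edgeR adjusted p = 0.0454). Its call held in 1 of 6 fits with a library dropped and was lost with trends on GC content and length removed (edgeR adjusted p = 0.0601). Of 9 tested tailing and turnover genes PARN, a deadenylase, rose by 1.72 ± 0.48 (edgeR adjusted p = 0.0291), but on few counts: 35, 22 and 25 among the controls and 85, 173 and 32 in the knockdown group. Knockdown replicate 3 lay within the control range in CPM, and the call held in 2 of 6 fits with a library dropped.

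**Figure D4:**
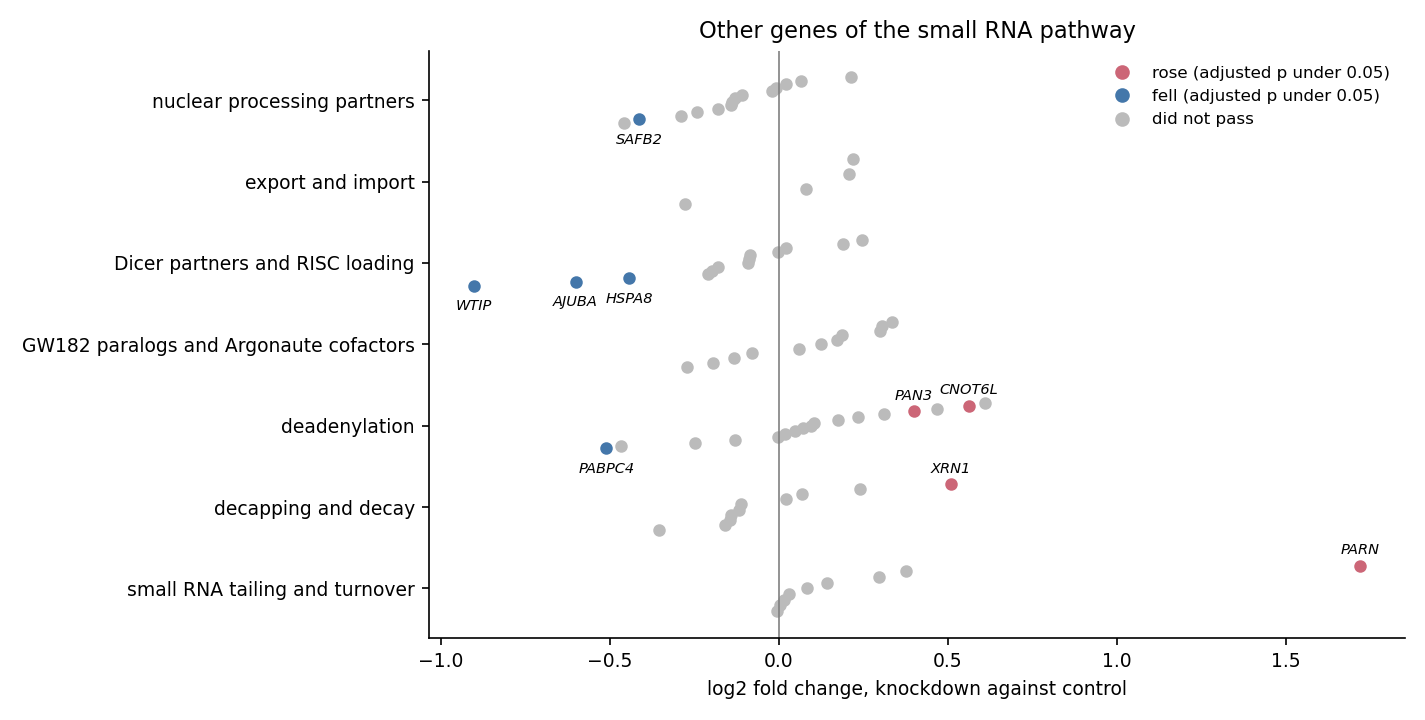
Log2 fold change, knockdown against control, of each tested gene in 7 lists of other pathway genes (1 point a gene, spread vertically for legibility). Coloured points passed at an edgeR adjusted p under 0.05: 4 rose and 5 fell, and 69 grey points did not pass.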

How the data were processed

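RNA sequencing counts of 6 T24 libraries, 3 control and 3 knockdown by their titles, were analysed. HISAT2 2.0.4 and GRCh38 come from the submitters' processing notes. Which counter, annotation, strand setting and read filter were used is not given in the sources used here. Values are raw counts by gene symbol as the authors deposited them, in 1 table with every column used. Replicates differed beyond sampling noise in each pair (chi-square over degrees of freedom, 2.56 to 31.6).

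The members and lists were chosen with earlier results of these data known. Genes passing edgeR's filterByExpr were scaled by TMM and tested with the quasi-likelihood F test (robust; edgeR 4.0.16, R 4.3.3), adjusting by Benjamini-Hochberg across all 13896 and calling at 0.05. A standard error is the log2 fold change divided by the square root of F. Log2 CPM used a prior count of 2. Levels per kilobase used the union of exons in GENCODE release 29, matched by symbol (12553 tested genes). The correction for GC content and length subtracted a loess trend (span 0.3) from each library and ran on those genes. Shares and ratios were tested by exact permutation (scipy 1.17.1). Alternatives were DESeq2 1.42.0, RLE scaling, other filters, a replicate block, a threshold of 0.01 and each library left out. Knockdown replicate 2 alone was added after seeing the data. The 3 genes of older symbol in the table are PAPD4 (TENT2), ZCCHC11 (TUT4) and ZCCHC6 (TUT7). The fit was checked on simulated counts. Named pathway genes are up to 3 past the threshold per list by size, each direction present, or the 2 most abundant where none passed.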

Additional observations from a re-analysis of the deposited data

How the results depend on the processing

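Counts of changed genes among all tested were 5062 with the replicate number as a block, 749 at a threshold of 0.01 and 4432 with knockdown replicate 2 alone, against 2402, and between 986 and 2645 with 1 library left out. Of the 10 members 1 passed. The count was 3 without the low-count filter, 2 by DESeq2, 4 with the trends on GC content and length removed, 5 with knockdown replicate 2 alone, 0 at a threshold of 0.01, where AGO2 (0.67) lost its call, and 0 to 3 with 1 library left out. Of the 78 other pathway genes 9 passed. The count was 14 with the trends removed, 22 with knockdown replicate 2 alone, 3 at 0.01, and 3 to 14 with 1 library left out.

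Whether the same replicate number pairs the libraries is not given in the labels. Deviations from the group means correlated at -0.02, 0.30 and 0.35 for numbers 1 to 3. Replicate 1 of each group correlated best with another number, and replicates 2 and 3 with their own. Correlations from so few libraries a group cannot decide whether the numbers pair them. With the replicate block 4 of 10 members passed (AGO1 0.31, AGO2 0.64, AGO4 0.49 and TARBP2 -0.43). So did 29 of 78 other pathway genes, against 36.4% of all tested genes. With the replicate block and the trends removed, 5412 genes passed, or 43.1% of those in that fit, with 6 of 10 members and 34 other pathway genes among them. The log2 fold changes were then -0.48 for AGO3, 0.37 for AGO4, -0.33 for TARBP2, -0.18 for DROSHA and -0.26 for XPO5, which gained calls, while DICER1 (-0.051) and TNRC6A (-0.097) changed sign.

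With the trends alone removed, AGO3 (-0.48), AGO4 (0.37) and XPO5 (-0.26) gained calls, and DICER1 (-0.045) and TNRC6A (-0.091) changed sign. Without the low-count filter AGO4 (0.48) and TARBP2 (-0.43) gained calls, and by DESeq2 AGO4 (0.48). With knockdown replicate 2 alone AGO1 (0.56), AGO4 (0.74), DICER1 (0.48) and TARBP2 (-0.74) crossed the threshold, on the spread of the controls and for a library chosen after seeing the data, DROSHA was at 0.0028, on the other side of 0, and the fitted difference between AGO2 and AGO3 was 1.19. The cause was not tested.

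With each library left out in turn, log2 fold changes ran from 0.18 to 0.44 for AGO1 (passing without knockdown replicate 3), 0.41 to 0.83 for AGO2, -0.30 to -0.16 for AGO3, 0.34 to 0.60 for AGO4 (passing without control replicate 2 and without knockdown replicate 3), 0.0066 to 0.34 for DICER1, -0.59 to -0.29 for TARBP2 (passing without knockdown replicate 1), -0.13 to 0.028 for DROSHA, -0.24 to -0.018 for DGCR8, -0.24 to -0.11 for XPO5 and -0.095 to 0.24 for TNRC6A. DROSHA was at 0.028 without knockdown replicate 3, and TNRC6A at -0.013 without control replicate 3 and -0.095 without knockdown replicate 2. The share of AGO4 differed between the groups by 0.38 percentage points without control replicate 2 and 0.47 without knockdown replicate 2, against -0.11 with all libraries, and ran from -0.64 to 0.47. RLE scaling and the filter at 1 CPM changed no call or direction of a member, and MTHFD2 kept both in every fit. Each member held at least 273 counts in every library, but whether depth limited their calls was not tested. PARN rests on few counts.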
